A study of Mus musculus with 3 samples.

Results

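The 10 genes described here encode factors of the primitive streak and of the mesoderm that has just left it: the T-box factors T (brachyury) and Eomes, the bHLH factor Mesp1, the homeobox factors Mixl1, Gsc, Lhx1, Evx1, Cdx1 and Cdx4, and the secreted ligand Fgf8. They were chosen by symbol, as every non-control probe whose accession maps to one of these genes in RefSeq. All 10 had at least 1 probe among the 32176 genes or accessions of the array, and 9 of them, all but Cdx4, were among the 19803 genes bright enough to test. RNA came from 2 groups of mouse embryoid bodies, aggregates of differentiating embryonic stem cells, at day 8 of cardiac differentiation: Hopx-/- cultures (null) and Hopx+/- cultures (heterozygous). Hopx encodes a small homeodomain protein without DNA-binding activity of its own that is expressed in heart and in several progenitor cells, and the study asked about its role in commitment to muscle. Each of 3 2-colour Agilent arrays carried RNA of 1 null and 1 heterozygous culture, so that every ratio was formed within an array.

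Cells of both groups were derived from E3.5 blastocysts on STO feeder cells (an inactivated mouse fibroblast line) with LIF and a MEK1 inhibitor at 50 µM for 7 days. They were then maintained on inactivated mouse embryonic fibroblasts, aggregated in hanging drops of 20 µl, and plated in medium with 5 ng/ml VEGF, 10 ng/ml bFGF, 12.5 ng/ml FGF10, 1 mM ascorbic acid and 2 mM Glutamax. The controls therefore carried 1 mutant Hopx allele, and no wild-type culture was analysed here. The labels call the replicates biological but do not say whether each came from its own stem cell line or from a repeated differentiation of 1 line per genotype, so the p-values cover only the differences among these arrays, and genotype and line cannot be told apart. In such bulk cultures, fewer cells of a type and less RNA per cell cannot be told apart either.

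In the gastrulating embryo, epiblast cells enter the primitive streak under Nodal, Wnt and Bmp signals, switch on T, Eomes and Mixl1, and leave as mesoderm or endoderm. Cells of the anterior streak express Gsc and Lhx1, the earliest cardiac mesoderm passes through a short period of Mesp1 expression, and Evx1, Cdx1 and Cdx4 mark posterior streak and the growing tail end. Fgf8 is needed for cells to move away from the streak. In the cardiac lineage they are normally off again by the time muscle cells contract.

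All ratios are log2 of null over heterozygous, and replicate 3 was turned. Per the labels every array had the null culture in Cy5. Over the probes tested, however, the correlation of Cy5 over Cy3 between arrays was -0.903 for replicates 3 and 1 and -0.901 for replicates 3 and 2, against 0.939 for replicates 2 and 1 (probes are not independent replicates). The authors' deposited value table ran against the scanner ratios for replicate 3 (r = -0.867) and with them for replicates 1 and 2 (r = 0.929 and r = 0.919), and its direction was taken. Left as labelled, replicate 3 brought limma's calls to 0 genes, 61 genes had an unadjusted p under 0.05, and an ordinary t statistic also called 0. Without replicate 3, limma called all 9 measured factors higher in null cultures, beside 5842 of all 19672 genes tested. Both remaining arrays carry the null culture in Cy5, so dye and genotype cannot be told apart in that fit. With all 3 arrays and a dye term beside the genotype term, all 9 were called higher as well, beside 6525 of all 19660 genes tested. Hopx itself had processed signals of 226.8, 268.4 and 202.2 in null cultures and of 2653, 2848 and 3265 in heterozygous cultures (replicates 1, 2 and 3 after turning). Its log2 ratio was -3.13 (SE 0.11, n = 3, limma adjusted p = 2.84e-07). The sources used here do not say where its probes lie relative to the deletion, which limits this check.

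The measured factors were all higher in null cultures. Of the 9 in the fit, 9 passed limma's adjusted p of 0.05 as higher, where 30.2% of all genes tested did so, 0 passed as lower, against 30.1% of all genes, and 8 passed as higher by at least 2-fold, against 4.87% of all genes. Mixl1 was the one below 2-fold. The count past 2-fold was 7 with the authors' deposited table and without replicate 2, where Lhx1 also fell short, and 9 with processed signals and without replicate 1. The share of all genes past 2-fold was not counted in these settings. T and Mixl1 entered the fit only through the null channel, being at background in heterozygous cultures, which strongly favours a higher ratio in advance. In the fit without a filter on dim probes, 9 of the 10 passed as higher, where 18.5% of all genes did, and Cdx4 did not pass. The median log2 ratio was 1.55 over the 9 and 1.52 over all 10 without the filter, beside medians of 0.00 over all genes in both fits. The 10 were picked with results of these data known, so these counts describe them and no test was made over the group. With replicate 3 as labelled, 0 of the 9 passed. With an ordinary t statistic per probe in place of limma's shared spread, 4 of the 9 passed (Mesp1, Eomes, Evx1 and Cdx1), and T, Gsc, Fgf8, Lhx1 and Mixl1 did not. Of all 19803 genes, 1964 were called higher in that setting.

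**Figure D1:**
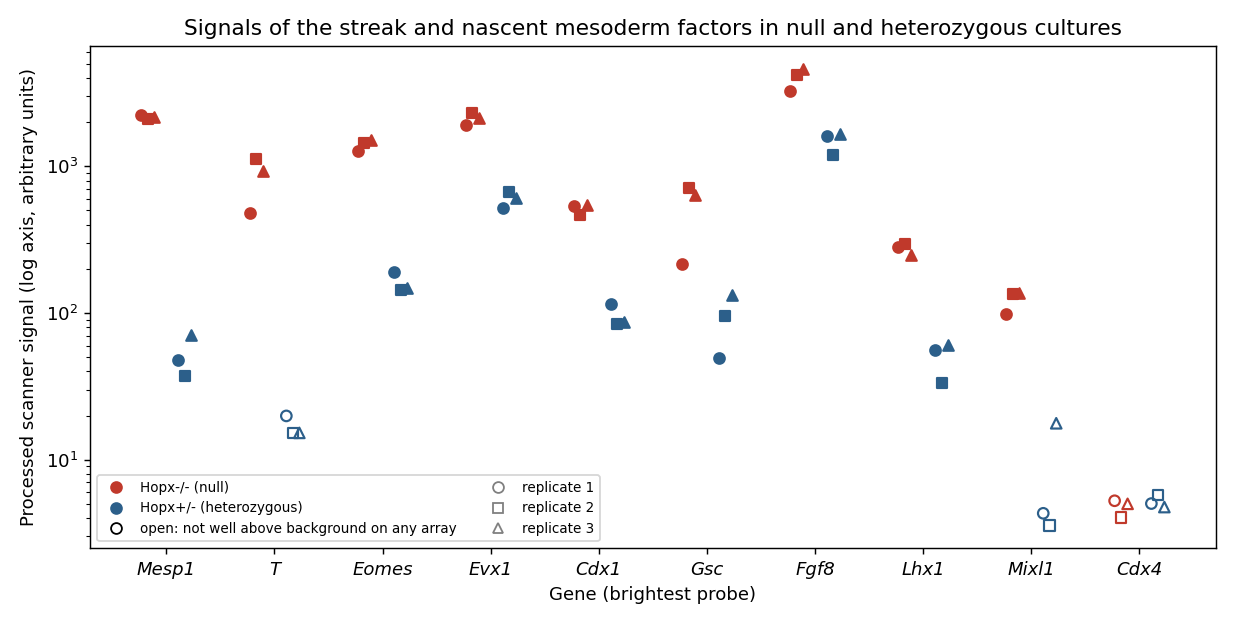
Processed signal (arbitrary units, log axis) of the brightest probe of each of the 10 genes in null and heterozygous cultures, one point per array; open points mark probes not well above background on any array. The null points lie above all heterozygous points for 9 genes, and the points of Cdx4 overlap at background. How many of all genes tested separate in this way was not counted, here or where the text says that groups did not overlap.

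Among the T-box factors, T, the defining gene of the streak and of nascent mesoderm, had processed signals of 479.8, 1118 and 927.8 in null cultures and of 19.88, 15.15 and 15.23 in heterozygous cultures. The groups did not overlap, and the heterozygous signal was not well above background on any of the 3 arrays, so that T stood clearly above background in null cultures only. Its log2 ratios on the 3 arrays were 1.91, 3.26 and 3.08, and the mean was 2.75 (SE 0.22, n = 3, limma adjusted p = 1.49e-05). Because of the dim channel this mean is a bound within this processing. As a mean over the 3 arrays, the null level of T was at least 6.72-fold higher, while replicate 1 alone lay below that. The heterozygous level was set on each array to its own signal, which was the higher choice on all 3. The array SD of 0.74 was the widest of the 9, with replicate 1 lower than the other arrays. The scanner software's processed signals, which carry no offset of 50, gave a log2 ratio of 5.58 for T, and the authors' deposited table gave 1.96.

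Eomes, which in the embryo acts with Nodal signalling in the streak and stands upstream of Mesp1, was represented by 2 probes. The brighter read 1269, 1450 and 1514 in null cultures and 191, 144.6 and 148.1 in heterozygous cultures, all well above background. All null values lay far above all heterozygous values. The log2 ratios were 2.22, 2.64 and 2.69, with a mean of 2.52 or 5.73-fold (SE 0.11, n = 3, limma adjusted p = 6.82e-07). The second probe gave 2.30, 2.83 and 2.77, a mean of 2.63 (SE 0.11), so the probes differed by less than their spread over arrays. With processed signals the ratio of Eomes was 3.14.

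Mesp1, the bHLH factor of the first mesoderm that gives rise to the heart, had the highest ratio of the 7 factors measured in both groups. Its processed signals were 2238, 2118 and 2180 in null cultures and 47.65, 37.02 and 70.89 in heterozygous cultures. The null signals lay within a narrow band, and the heterozygous ones were low but well above background on all 3 arrays. The log2 ratios of 3.76, 3.89 and 3.63 gave a mean of 3.76, a 13.6-fold difference (SE 0.09, n = 3, limma adjusted p = 1.09e-07). With the offset of 50, only 3 of the 19803 genes tested had a higher ratio than Mesp1. With processed signals its log2 ratio was 5.45. Mesp2, its neighbour on chromosome 7 with 0 genes of the RefSeq table between them, which in the embryo acts mainly in somite formation, read 97.93, 87.36 and 85.21 in null cultures and 37.46, 23.82 and 26.89 in heterozygous cultures. Its log2 ratio was 0.53 (SE 0.09, n = 3, limma adjusted p = 0.000812), and it was well above background in heterozygous cultures on 2 arrays.

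**Figure D2:**
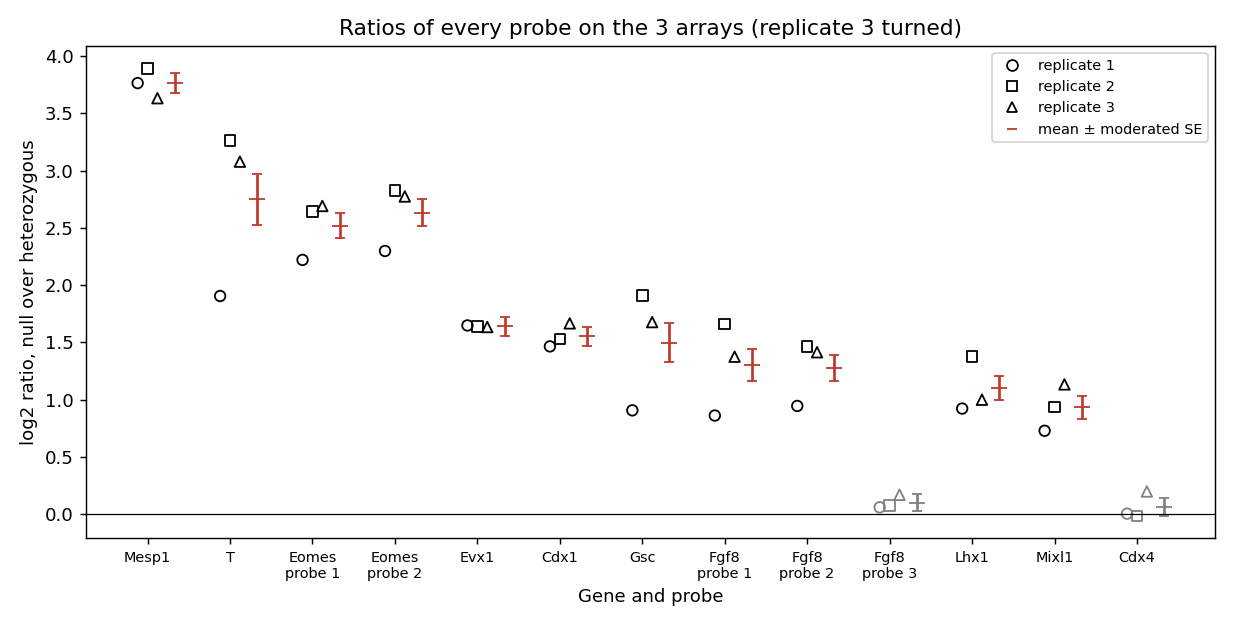
Log2 ratio of null over heterozygous for every probe of the 10 genes, with the 3 arrays as points and the mean with its moderated SE as a bar. All probes lie above 0 on the 3 arrays except that of Cdx4, and the array points of T and Gsc are the most spread.

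The promoters of Mesp1 and of the T-box factors T and Eomes are shown because T-box factors and the Tcf/Lef partners of Wnt signalling are known to act on streak genes. Each runs from 250 bases before to 50 bases after the start site in RefSeq (GRCm38.p6), 5′ to 3′ on the gene's strand, and capitals mark matches to the motifs searched on both strands: the Tcf/Lef core CTTTGA, the T-box half-site AGGTGTGA, the Foxh1 type AATNNACA and the box TATAAA bound by the general factor TBP. The window of T lies at chr17:8434173-8434472 on the plus strand, Mesp1 at chr7:79793541-79793840 on the minus strand and Eomes at chr9:118477939-118478238 on the plus strand.
T: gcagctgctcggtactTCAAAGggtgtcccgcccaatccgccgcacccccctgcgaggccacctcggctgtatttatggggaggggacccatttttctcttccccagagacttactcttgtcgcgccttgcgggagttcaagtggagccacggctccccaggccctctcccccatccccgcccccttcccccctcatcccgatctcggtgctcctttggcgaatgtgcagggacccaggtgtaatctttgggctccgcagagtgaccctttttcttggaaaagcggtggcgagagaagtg
Mesp1: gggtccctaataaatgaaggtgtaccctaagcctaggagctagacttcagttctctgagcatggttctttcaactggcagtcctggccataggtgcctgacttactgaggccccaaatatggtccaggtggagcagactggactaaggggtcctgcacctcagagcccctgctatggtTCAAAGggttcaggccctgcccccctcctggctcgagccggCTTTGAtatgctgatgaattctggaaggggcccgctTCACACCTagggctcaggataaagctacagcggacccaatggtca
Eomes: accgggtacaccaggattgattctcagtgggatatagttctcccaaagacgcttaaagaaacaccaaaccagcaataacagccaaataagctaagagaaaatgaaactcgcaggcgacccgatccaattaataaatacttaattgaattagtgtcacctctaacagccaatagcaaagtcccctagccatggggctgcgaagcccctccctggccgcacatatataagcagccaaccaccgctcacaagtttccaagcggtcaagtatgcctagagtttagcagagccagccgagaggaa
The T promoter held 1 Tcf/Lef core, with its first base at position -234 from the start site. The Mesp1 promoter held 2, at positions -72 and -31, and a T-box half-site at position 5. The Eomes window held none of the motifs. The member search left out a chromosome that the shares over all promoters kept. No window of Mixl1, Fgf8 or Cdx1 was searched, so the counts below say nothing about these genes. Of the 7 members searched (T, Mesp1, Eomes, Gsc, Lhx1, Evx1 and Cdx4), 2 held the Tcf/Lef core and 1 the T-box half-site. Among all 32851 promoters of the table, 16% and 1.28% held them. Gsc held the TBP box at position -164, as 13.6% of promoters did, and the Foxh1 type motif was in 0 of the 7 windows and in 12.2% of all promoters. A match is a string of letters, and no binding was measured.

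Of the factors of the anterior streak, Gsc, a homeobox repressor of the organizer region, read 215.5, 714.1 and 635.6 in null cultures and 49.08, 95.37 and 131.9 in heterozygous cultures. The groups did not overlap, but replicate 1 was the lowest array in both. Its log2 ratios were 0.91, 1.91 and 1.68, and the mean of 1.498 was a 2.82-fold difference (SE 0.17, n = 3, limma adjusted p = 9.74e-05). Lhx1, a LIM homeobox factor needed for the anterior streak and the head, read 283.2, 297.7 and 249.8 in null cultures and 55.91, 33.16 and 60.41 in heterozygous cultures. Null values lay well above heterozygous ones on each array. The log2 ratios of 0.92, 1.38 and 1.00 gave a mean of 1.099 or 2.14-fold (SE 0.11, n = 3, limma adjusted p = 3.94e-05). With processed signals these ratios were 2.44 for Gsc and 2.52 for Lhx1, and in the authors' deposited table they were 1.16 and 0.70. Without replicate 2 the ratio of Lhx1 was 0.96, under 2-fold.

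Mixl1, a paired-type homeobox factor that in the embryo limits and patterns streak mesoderm and endoderm, read 98.72, 134.5 and 137.7 in null cultures and 4.31, 3.564 and 17.71 in heterozygous cultures. It was not well above background in heterozygous cultures on any array. The log2 ratios were 0.73, 0.94 and 1.13 with a mean of 0.93 (SE 0.10, n = 3, limma adjusted p = 6.88e-05). As a mean over the arrays and within this processing, this gives at least 1.91-fold higher in null cultures. With processed signals the log2 ratio of Mixl1 was 4.24, above 2-fold, and in the authors' deposited table it was 0.78.

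The posterior factors differed in whether they could be measured. Evx1, an even-skipped homeobox factor of the posterior streak, read 1915, 2304 and 2151 in null cultures and 522.1, 667.5 and 605.2 in heterozygous cultures. Both groups were bright and did not overlap. The log2 ratios of 1.65, 1.64 and 1.63 were the closest together of the 9, with a mean of 1.64 or 3.12-fold (SE 0.08, n = 3, limma adjusted p = 1.15e-06). Cdx1, a caudal-type homeobox factor and Wnt target that patterns the body axis, read 533.9, 464 and 542.7 in null cultures and 115.8, 84.38 and 86.65 in heterozygous cultures. Every null value lay above every heterozygous value. Its log2 ratios were 1.47, 1.53 and 1.67, with a mean of 1.55 or 2.94-fold (SE 0.09, n = 3, limma adjusted p = 2e-06), and 2.44 with processed signals.

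Cdx4, the X-linked caudal factor, read 5.247, 4.043 and 5 in null cultures and 5.022, 5.725 and 4.753 in heterozygous cultures, not well above background on any array in either channel. No fold is given for it, since its ratio of 0.06 (SE 0.08, n = 3, limma adjusted p = 0.632 without the filter) compares background with background. Cdx2, the third caudal gene, which in the embryo also serves trophoblast and gut, went the other way from Cdx1. It read 2736, 2294 and 1739 in null cultures and 5170, 4738 and 4293 in heterozygous cultures, with a mean log2 ratio of -1.1 (SE 0.09, n = 3, limma adjusted p = 1.66e-05). Evx2 and Gsc2, the paralogs of Evx1 and Gsc, were not well above background in either channel.

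Fgf8, the ligand of the group, had 3 probes carrying the same accession. The brightest read 3248, 4195 and 4625 in null cultures and 1604, 1199 and 1661 in heterozygous cultures. The groups did not overlap, and Fgf8 was well above background in both. The log2 ratios were 0.86, 1.66 and 1.38, with a mean of 1.30 or 2.46-fold (SE 0.14, n = 3, limma adjusted p = 7.47e-05). The second probe gave 0.95, 1.47 and 1.41, mean 1.27 (SE 0.11). The third was near background, above it on 1 array in null cultures and on 0 in heterozygous cultures, and its ratio of 0.10 (limma adjusted p = 0.356 without the filter) bears on no difference.

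**Figure D3:**
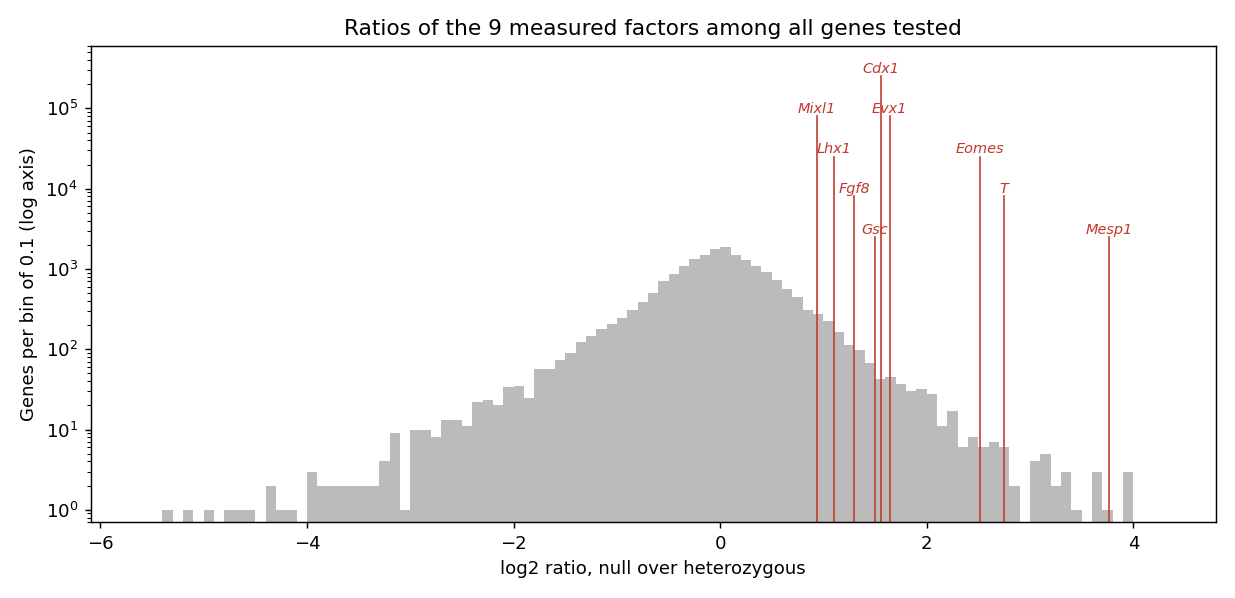
Distribution of the log2 ratios of all 19803 genes tested (log axis for genes per bin of 0.1), with the 9 measured factors marked. The 9 lie between 0.93 (Mixl1) and 3.76 (Mesp1), and the marks of T and Mixl1 are lower bounds of the mean within this processing.

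T and Mixl1, whose ratios are bounds, have no place in an order of the ratios. Among the 7 factors measured in both groups, the ratios ran from Mesp1 through Eomes, Evx1, Cdx1, Gsc and Fgf8 to Lhx1. Within arrays, Mesp1 exceeded Eomes by 1.25 ± 0.30 (log2, SD, n = 3), Eomes exceeded Evx1 by 0.88 ± 0.27 and Gsc exceeded Fgf8 by 0.20 ± 0.14, each on 3 of 3 arrays. The other neighbours did not differ beyond their spread: Evx1 over Cdx1 was 0.09 ± 0.11, Cdx1 over Gsc 0.06 ± 0.47 and Fgf8 over Lhx1 0.20 ± 0.23. The order below Eomes depended on the processing: with processed signals it was Lhx1 (2.52), Cdx1 (2.44), Gsc (2.44), Evx1 (1.83) and Fgf8 (1.43). Those signals differ in background removal and normalization as well as in the offset, and the offset alone was not varied.

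Across arrays, and with the bounds of T and Mixl1 counted in, replicate 1 gave the lowest ratio for 7 of the 9 (77.8%), the exceptions being Mesp1 and Evx1, and their mean ratios were 1.60, 2.09 and 1.99 on the 3 arrays. Among the other 951 genes that rose by at least 2-fold, replicate 1 was the lowest for 393 (41.3%), and the means were 1.41, 1.46 and 1.47. The genes nearest to the mean profile of the 9, by root mean square difference over the 3 arrays, were Nodal (0.039), Jakmip1 (0.041), Usp44 (0.072), Ppp4r4 (0.076) and Atm (0.088). Nodal, the ligand that induces the streak, had log2 ratios of 1.54, 2.07 and 2.00.

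Ligands and antagonists that act on the streak were mostly higher in null cultures too. Of 19 such genes, 17 were tested, and 12 rose, 1 fell and 4 did not pass, with a median of 1.71 (of all genes tested, 30.2% rose and 30.1% fell, here and for the lists that follow). Cer1 and Wnt8a entered the fit only through the null channel, which favours a higher ratio. In heterozygous cultures Cer1 was well above background on 2 arrays and Wnt8a on 0. Without the filter 12 of 19 rose, against 18.5% of all genes. Fgf5, an epiblast ligand, rose by 3.65 (SE 0.15, limma adjusted p = 6.17e-07), Cer1, a secreted Nodal and Bmp antagonist, by 3.33 (SE 0.16, adjusted p = 1.03e-06) and Lefty1, a Nodal inhibitor, by 3.05 (SE 0.09, adjusted p = 1.54e-07), all log2 with n = 3. Bmp4 fell by 0.65 on the log2 scale (SE 0.09, limma adjusted p = 0.000438). Several of these ligands are also made by pluripotent cells and epiblast.

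Other transcription factors of mesoderm had a lower median: of 18 listed, 17 were tested, and 13 rose, 2 fell and 2 did not pass, with a median of 0.84, beside 30.2% and 30.1% of all genes. Mesp2, Meox1, Nkx1-2 and Foxb1 entered only through the null channel. Without the filter 12 of 18 rose, against 18.5% of all genes, with a median of 0.71. The Wnt targets Sp8 and Sp5 rose by 2.62 (SE 0.13) and 2.50 (SE 0.14). Foxb1 was at background in heterozygous cultures on all 3 arrays. As a mean over the arrays and within this processing, it was at least 4.15-fold higher, with log2 ratios of 1.60, 2.01 and 2.56. Cdx2 and Hand1 were those that fell. Of the other T-box genes, Tbx4, a limb and allantois factor, rose by 3.02 (SE 0.18), while Tbx3, Tbx1 and Tbx20 fell by 1.51, 1.30 and 1.04 (SE 0.08, 0.08 and 0.13), all log2 with n = 3. Over 12 tested T-box genes outside the members, 3 rose, 4 fell and 5 did not pass, with a median of 0.04. Those shares were near the 30.2% and 30.1% of all genes, and 3 of the 12, Tbx4 among them, entered only through the null channel.

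The factors that follow Mesp1 in cardiac mesoderm went down more often than up. Of 13 tested, 2 rose, against 30.2% of all genes, 9 fell, against 30.1%, and 2 did not pass, with a median of -0.80. Myocd, which switches on contractile genes as a partner of SRF, fell by 2.88 (SE 0.10), the homeobox factor Nkx2-5 by 2.23 (SE 0.15) and Gata4 by 1.52 (SE 0.10), while Kdr, a receptor of early mesoderm and endothelium, rose by 1.19 (SE 0.11). Cardiomyocyte genes fell further: 11 of 11 tested fell, with a median of -3.29, led by the contractile genes Myh6 at -5.31 (SE 0.14), Myh7 at -5.11 (SE 0.11) and Myl4 at -4.77 (SE 0.12). The summed signal of 11 of the 12 listed genes, Tnnt2 being left out for a missing array value, was between 44900 and 64300 in null cultures and between 382000 and 489000 in heterozygous cultures, so cardiomyocyte markers were present in both groups. Most of the null sum was Actc1, with a mean signal of 42230 in null and 128000 in heterozygous cultures. Myh6 and Myh7 had means of 1824 and 2095 in null cultures and of 71900 and 74000 in heterozygous cultures.

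**Figure D4:**
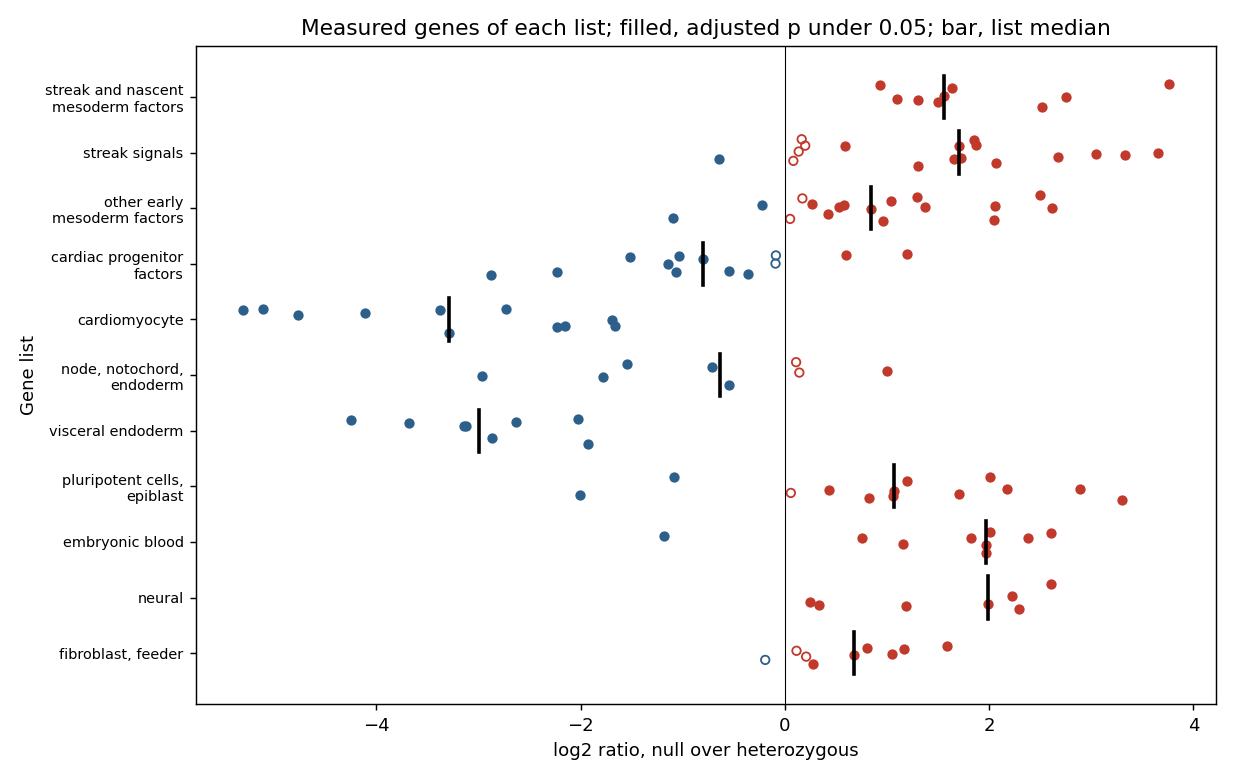
Log2 ratios of the tested genes of each gene list, 1 point per gene, filled where limma's adjusted p was under 0.05, with a bar at the list's median. The streak factors, streak signals, blood and neural lists have medians above 1.5, and the cardiomyocyte and visceral endoderm lists have medians near -3.

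Other cell types that use these factors or surround them also differed between the groups. The genes named for them had moderated SEs between 0.08 (Chrd) and 0.20 (Dcn), with n = 3, and the counts stand beside 30.2% of all genes that rose and 30.1% that fell. Node and definitive endoderm cells also express T, Gsc, Lhx1, Eomes or Mixl1, and of 8 of their genes tested, 1 rose, 5 fell and 2 did not pass. Foxa1 at -2.97, Sox17 at -1.78, Foxa2 at -1.54, Shh at -0.72 and Nog at -0.55 fell. Foxj1 rose by 1.00, and Hhex at 0.14 and Chrd at 0.11 did not pass. The list's summed signal was 6230 to 11400 in null cultures and 26700 to 33300 in heterozygous cultures, and Noto, a defining node gene, was not among the genes tested. Whether the falls lie in node, definitive endoderm or visceral endoderm cells was not tested. Pluripotent and epiblast genes had a summed signal of 180000 to 199000 in null cultures and 74200 to 90000 in heterozygous cultures. Of 13, 10 rose, 2 fell and 1 did not pass, with Pou3f1 at 3.30, Dnmt3b at 2.89 and Otx2 at 2.17. Klf4 at -2.01 and Zfp42 at -1.09 were those that fell, while Esrrb at 1.20, Dppa3 at 1.06 and Dppa5a at 0.43, which like them are used as markers of naive pluripotency, rose. Nanog rose by 2.01 with its brightest probe and gave -0.34 with another. The part of these cells in the higher ratios of T, Eomes and the rest was not tested.

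Visceral endoderm genes fell in 8 of 8, against 30.1% of all genes, led by Cubn at -4.25, Rbp4 at -3.68 and Amn at -3.14, with a summed signal of 24100 to 33100 in null cultures and 212000 to 251000 in heterozygous cultures. Embryonic blood genes, whose cells also come from streak mesoderm, rose in 8 of 9, against 30.2% of all genes, and fell in 1, Runx1, with Slc4a1 at 2.61, Hba-x at 2.38 and Hbb-y at 2.01. Their summed signal was 241000 to 311000 in null cultures and 64700 to 106000 in heterozygous cultures. Neural genes rose in 7 of 7 tested, with Zic2 at 2.60, Tubb3 at 2.29 and Sox3 at 2.22, and their summed signal was 14500 to 19000 in null cultures and 3300 to 3840 in heterozygous cultures. Of these, Olig2 at 0.33 entered the fit only through the null channel. Sox1 rose by only 0.25 (limma adjusted p = 0.0458), and Pax6 and Neurod1 were not among the genes tested. Without the filter 6 of 9 neural genes rose, against 18.5% of all genes. Fibroblast genes, which feeder cells also express, rose in 6 of 9 and 3 did not pass, with Col1a2 at 1.59, Lum at 1.17 and Dcn at 1.05. The summed signal of 7 of them was 87700 to 125000 in null cultures and 39600 to 55600 in heterozygous cultures. The part of each in the members' ratios was not tested.

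**Figure D5:**
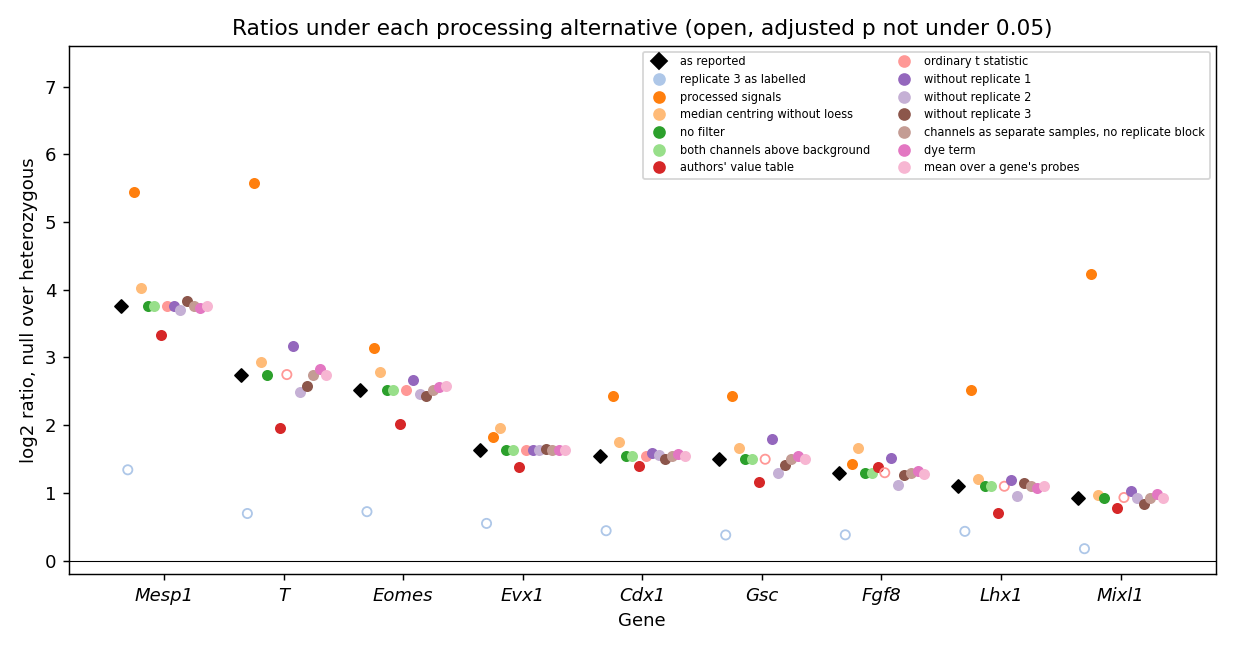
Log2 ratio of each measured factor under each processing alternative, open where the adjusted p was not under 0.05. All ratios lie above 0, the open points belong to replicate 3 as labelled and to the ordinary t statistic, and processed signals give the highest ratios for T, Mixl1, Mesp1 and Eomes.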

How the data were processed

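The arrays' spot intensity values, medians of foreground and local background in both channels with flags and the software's processed signals, were deposited by the submitters. The file headers name Agilent Feature Extraction 11.5.1.1. Version 8.5.1.1 stands in the submitters' processing notes. The authors deposited a value table read here as log2 ratios, its normalization not given in the sources used here, with column medians of -0.10, -0.11 and 0.07. The scanner's log10 ratio column, deposited beside the signals, was not used. All 3 arrays lay on 1 slide, and of 43020 non-control spots 61.9% to 72.9% exceeded background clearly in a channel, by the scanner's flag.

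With limma 3.58.1 (R 4.3.3), local background was removed by normexp (offset 50), which pulls ratios of dim probes toward 0, and ratios were normalized by loess within arrays, control and outlier spots having weight 0. Spots of a probe were averaged, outlier spots left out, and the ratios of replicate 3 turned. A probe was tested if flagged as well above background on all 3 arrays in at least 1 of the genotypes (24575 of 39429). Ratios were tested against 0 with lmFit and eBayes (two-sided), adjusted by Benjamini-Hochberg over those probes, and a gene took its brightest probe. SE is the moderated SE. For bounds, the level of a dim channel was replaced, array by array, by the lowest signal of any probe flagged as above background wherever that exceeded its own (after loess and Aquantile). Dye bias can affect these bounds. RefSeq accessions (GRCm38.p6) named 28025 of 39429 probes (71.1%). The design is on mm9, so no coordinates of the gene table are given.

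Genes and lists were chosen with earlier results of these data known. Named were all members with every probe, Hopx, up to 3 called genes with the largest change in each list (in a list with no call, the 2 of lowest adjusted p), every T-box, LIM and Fgf family gene past 2-fold, the close paralogs, and the 5 genes nearest to the members' mean profile. Genes named outside this rule (Bmp4, Wnt8a, Meox1, Nkx1-2, Hand1, Kdr, Actc1, Tnnt2, Foxj1, Noto, Shh, Nog, Chrd, Hhex, Klf4, Zfp42, Esrrb, Dppa3, Dppa5a, Nanog, Runx1, Olig2, Sox1, Pax6 and Neurod1) were picked after their values were seen. The fit was tested on simulated data.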

Additional observations from a re-analysis of the deposited data

How the results depend on the processing

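With replicate 3 as labelled, 0 genes were called higher and 0 lower, and 0 of the 9 measured factors passed, with ratios of 0.18 (Mixl1) to 1.34 (Mesp1). With an ordinary t statistic per probe, limma's shared spread being left out, 1964 genes were called higher and 2032 lower, and 4 factors passed (Mesp1, Eomes, Evx1 and Cdx1), while T, Mixl1, Gsc, Lhx1 and Fgf8 had adjusted p of 0.0696, 0.0585, 0.0901, 0.0593 and 0.0804. Median centring without loess called 3007 genes lower and 8540 higher, so that 74% of calls were higher, against 50% with loess, and moved the median of all genes to 0.23. The authors' deposited table called 3910 genes higher. The cause was not tested for these counts. Leaving out a replicate gave 4961 to 5842 genes higher, 4849 to 5984 lower and 9 to 9 factors. Treating the channels as unpaired samples, with no replicate block, called 4026 genes higher, 4114 lower and 9 factors. All 9 also passed with processed signals, median centring, no filter, the authors' table, a dye term and the mean over a gene's probes. In those settings, in that order, 6115, 8540, 5959, 3910, 6525 and 5941 of all genes were called higher. Where both channels had to be above background, 7 of 7 passed, T and Mixl1 being left out, beside 5385 of all 18052 genes. The mean ratio of each factor stayed above 0 under every alternative run. With replicate 3 as labelled, that array ran the other way for all 9, so the sign of the mean there rests on the other arrays only. Signal over background limits T, Mixl1 and Cdx4, and 3 arrays limit the precision of all.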

Other observations

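Of 8 LIM homeobox genes tested beside Lhx1, 3 rose, 2 fell and 3 did not pass, shares near the 30.2% and 30.1% of all genes that rose and fell. Of the 8, 2 entered only through the null channel and 1 only through the heterozygous channel. Lhx2, a factor of forebrain and limb, rose by 1.56 on the log2 scale (SE 0.12, n = 3, limma adjusted p = 1.08e-05), and Isl1, a factor of second heart field and motor neurons, fell by 1.06 (SE 0.09, adjusted p = 1.81e-05). Of 14 Fgf genes tested beside Fgf8, 3 rose, 4 fell and 7 did not pass, again near those shares, and 2 of the 14 entered only through the heterozygous channel. Without the filter 4 of 21 rose, against 18.5% of all genes, and 3 fell, where 5938 of all 32163 genes did. Fgf5 rose by 3.65 and Fgf4, a ligand of pluripotent cells and streak, by 1.66 (SE 0.13, limma adjusted p = 1.37e-05), while Fgf11 fell by 1.71 (SE 0.08, adjusted p = 9.72e-07).

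Among tissues that use Lhx1, Evx1 or Cdx1 later in development, the spinal and nephric list gave few measurable genes and the intestinal list most of its genes. Of 8 spinal and nephric genes, 2 were tested, Lhx5 at -0.09 (SE 0.15, limma adjusted p = 0.63) and Osr1 at -0.08 (SE 0.09, adjusted p = 0.481), and the summed signal of the 8 was 205 to 432 in null cultures and 258 to 315 in heterozygous cultures. Of 4 intestinal genes tested, 1 rose and 3 fell, beside 30.2% and 30.1% of all genes. Vil1 and Fabp2, of the absorptive epithelium, fell by 2.12 (SE 0.09) and 1.57 (SE 0.12), and Lgr5, a Wnt target, rose by 0.99 (SE 0.12), while Cdx1 rose by 1.55. Visceral endoderm genes fell in 8 of 8, and in which cells Vil1 and Fabp2 fell was not tested.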
